A study of Homo sapiens with 4 samples.

Results

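Tissue kallikreins of squamous epithelium and their inhibitor SPINK5 were examined as a group of 10 genes: KLK5, KLK6, KLK7, KLK8, KLK10, KLK11, KLK12, KLK13, KLK14 and SPINK5. Membership followed from the gene name alone, but the group was picked for description with earlier results of these data known. The array carried 14 probes for these genes among 34127 probes in all, and the members are 10 of 27953 genes, where a transcript that could not be named counts as a gene by its identifier. Of the 14 probes, 13 stood well above background and were tested, so each of the 10 genes had at least 1 tested probe.

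The cells were of the SAS line, an established line from a human tongue squamous cell carcinoma. SB cells stably carried the lentiviral vector pLKO.1 with LYRIC shRNA-B, an shRNA against AEG-1 (gene symbol MTDH, also called LYRIC). SCt cells carried a control construct, for which the sample labels give pLKO.1 alone and the study's methods give a scrambled shRNA. Both lines were selected with puromycin (2 μg/ml, 14 days) and kept in it as stable clones, whose number is not stated. On each of 4 two-colour Agilent arrays, RNA from SB cells (red dye) was hybridized together with RNA from SCt cells (green dye), which asked how AEG-1 knockdown changes gene expression. The labels call the arrays biological replicates. The study's methods state independent biological replicates for in vitro comparisons, in a number that is not that of the arrays, so whether the arrays came from separate cultures is not settled, and the SDs and p-values given here may cover technical spread only. No array had the dyes swapped, so a probe's preference for a dye and an effect of the knockdown cannot be told apart.

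Tissue kallikreins are secreted serine proteases encoded side by side on chromosome 19. They are made as inactive proenzymes and activate one another, or are activated by other trypsin-like proteases, in a cascade. In the upper layers of squamous epithelium, KLK5 and KLK7 cleave the proteins of cell-cell junctions such as corneodesmosin and desmoglein 1, which lets the outermost cells be shed, and the SPINK5 product LEKTI holds them in check. Loss of SPINK5 causes Netherton syndrome, in which the skin barrier fails, and several kallikreins are known to be expressed at altered levels in carcinomas of the head and neck.

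The MTDH probe A_33_P3234168 gave log2 ratios of SB over SCt of -3.18, -3.01, -3.12 and -3.41 on arrays 1 to 4, so the knockdown was present on each array. Between 84.7% and 90.3% of spots were well above background in a channel, and 0 spots were saturated. All 9 squamous epithelial markers examined, such as KRT5, KRT14 and TP63, were well above background on all 4 arrays in both lines. Of the 9 cornified-layer markers on the array, 7 were so, and KRT1 was not on any array. Markers of other cell types were not uniformly dim: 3 of 6 fibroblast markers (COL1A1, COL1A2 and DCN), 5 of 5 leukocyte and 4 of 4 endothelial markers were well above background on all 4 arrays in both lines, while the fibroblast genes COL3A1 and LUM were so on none. Each gene was counted by its brightest probe. The fibroblast marker DCN and the leukocyte marker PTPRC each also had a probe that was well above background on no array. The summed intensities of these lists overlapped between SB and SCt cells, and their part in the kallikrein values was not tested.

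KLK5 and KLK6 were lower in SB cells, and the other members did not pass the test. KLK5 was 1.29-fold lower and KLK6 1.25-fold lower, so both differences were small. Of the 10 genes, 2 had an adjusted p under 0.05 (limma with Benjamini-Hochberg adjustment over all probes), both lower in SB cells. Among all 23485 genes tested, 3.51% passed in either direction and 2.26% passed as lower. The mean log2 ratio was below 0 for 8 of the 10 members by the brightest probe, against 44.6% of all genes. SPINK5 is one of the 8, although its second probe had a mean above 0. Of the 8 genes, 5 (KLK5, KLK6, KLK7, KLK8 and SPINK5) were below 0 on all 4 arrays, against 12.2% of all genes. Of the 9 squamous epithelial markers, 6 had a mean below 0, and 2 were below 0 on all 4 arrays. Among 31 tested inhibitors, activators, substrates and other tissue kallikreins, 13 had a mean below 0. By limma, 4 of the 10 members and 4 of the 9 markers had an unadjusted p under 0.05, against 18.1% of all genes. Those members (KLK5, KLK6, KLK7 and KLK8) all had means below 0. Of those markers, KRT6A, SFN and EPCAM had means below 0 and KRT14 had a mean above it (0.14). The median over the members was -0.10, whereas the median over all genes was 0.01. These ratios describe RNA from whole cultures, in which fewer cells expressing a gene and less RNA per cell cannot be told apart. The kallikreins are related in sequence and the probe sequences were not used here, so signal shared between probes of related genes was not tested.

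**Figure D1:**
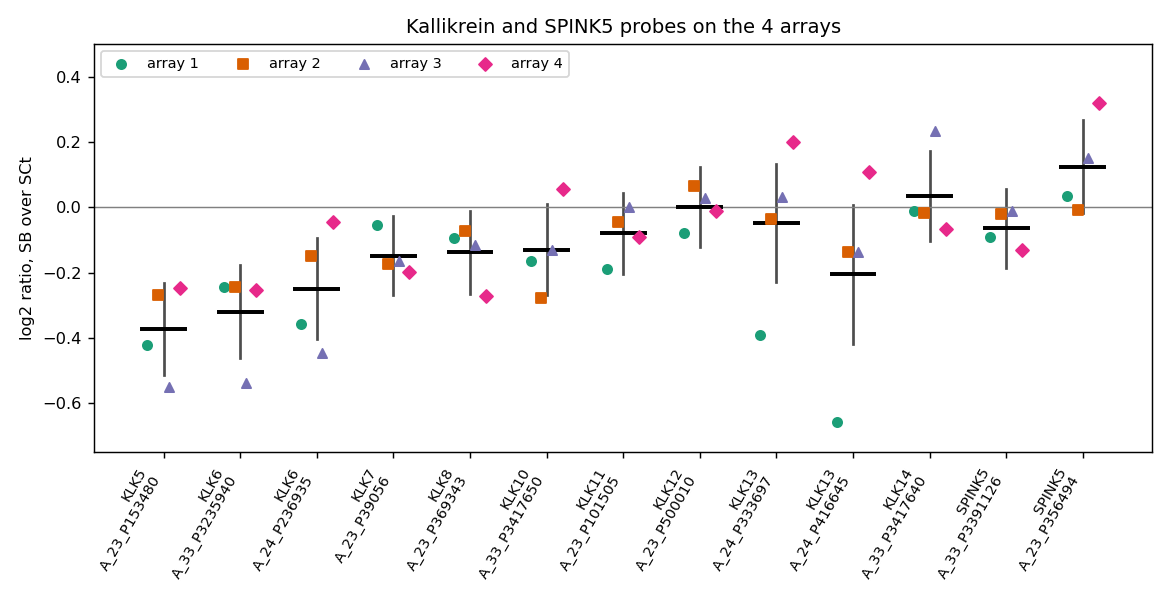
Log2 ratio of SB over SCt (vertical axis) for the 13 tested probes (horizontal axis, by gene and probe). Coloured points are the 4 arrays, thick bars the means and thin lines the 95% intervals from limma. All 4 points of KLK5 and of both KLK6 probes lie below 0, whereas the points of KLK12, KLK13 and KLK14 lie on both sides of it.

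KLK5 is a trypsin-like protease that can activate itself and several other kallikreins and is placed at the head of the cascade. In SCt cells its probe A_23_P153480 had normalised log2 intensities of 13.19, 13.34, 13.75 and 12.02 on arrays 1 to 4. In SB cells the values were 12.77, 13.07, 13.20 and 11.78. The ranges of the lines overlapped, and both were lowest on array 4, but within every array the SB value was the lower one. The log2 ratios were -0.42, -0.27, -0.55 and -0.25, with a mean of -0.37 ± 0.14 (SD, n = 4 arrays; limma adjusted p = 0.00899; 95% interval -0.51 to -0.23). With median centring in place of loess the mean was -0.20 (limma adjusted p = 0.0361), in a setting where 31.4% of all probes passed. The call was lost with the scanner software's ratio (-0.34, limma adjusted p = 0.0554) and with the series table (-0.34, limma adjusted p = 0.0625). The series table largely repeats the software's ratio, so these are not separate alternatives. It was also lost without array 3 (-0.31, limma adjusted p = 0.0923), where 204 probes passed in all, against 1055 with 4 arrays. With an adjustment over all probes, which the study's methods do not name, the methods' t-test called 0 probes. It thus could not keep the KLK5 call.

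KLK6, also called neurosin, is a trypsin-like protease that cleaves matrix proteins and protease-activated receptors. Its brightest probe, A_33_P3235940, had log2 intensities of 14.92, 15.25, 15.58 and 14.68 in SCt cells on arrays 1 to 4. In SB cells it had 14.68, 15.01, 15.04 and 14.43. As for KLK5, the lines overlapped across arrays, and SB was below SCt within each array. The log2 ratios were -0.24, -0.24, -0.54 and -0.25, of which 3 were almost equal and that of array 3 stood apart. Their mean was -0.32 ± 0.15 (SD, n = 4 arrays; limma adjusted p = 0.0201; 95% interval -0.46 to -0.18). Among all tested probes 3.70% passed. The second KLK6 probe, A_24_P236935, gave -0.36, -0.15, -0.44 and -0.04. It was also below 0 on every array, but its mean of -0.25 ± 0.18 (SD, n = 4 arrays) did not pass the test (limma adjusted p = 0.0805), and without array 4 it did (-0.32, limma adjusted p = 0.00393). The difference in KLK6 depended on the normalization within the array. With each array centred on its median in place of loess, the brightest probe had a mean of -0.0031 (limma adjusted p = 0.974). Its call was also lost with the series table (-0.35, limma adjusted p = 0.0504), without array 2 (-0.34, limma adjusted p = 0.0603) and without array 3 (-0.25, limma adjusted p = 0.119). In all, 427 probes passed without array 2 and 204 without array 3, against 1055 with 4 arrays. With the same added adjustment, the methods' t-test called 0 of all probes, so it could not keep the KLK6 call.

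**Figure D2:**
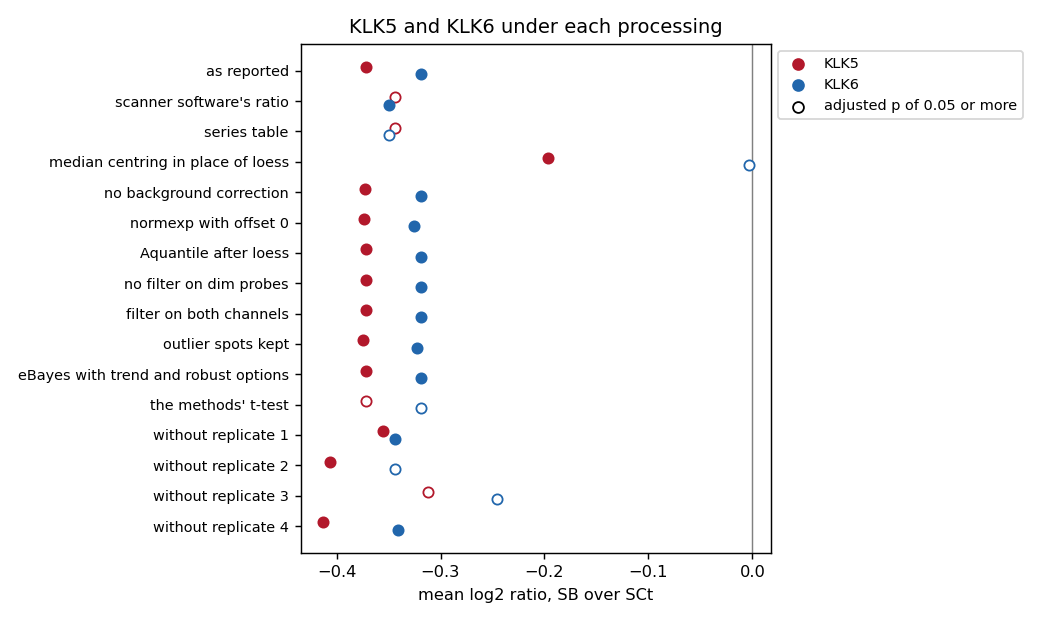
Mean log2 ratio of SB over SCt (horizontal axis) of KLK5 and of the brightest KLK6 probe under each way of processing (vertical axis). Filled points have an adjusted p under 0.05, and open points do not. KLK5 stays between -0.41 and -0.20, whereas KLK6 reaches -0.0031 with median centring.

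The proximal promoters of the called genes are shown beside that of the inhibitor, to let the sequences be read next to the expression values. They are the 250 bases before the gene start on the gene's strand, taken from RefSeq (GRCh38.p14). The KLK5 window is chr19:50953039-50953288 on the minus strand, the KLK6 window chr19:50969592-50969841 on the minus strand, and the SPINK5 window chr5:148063730-148063979 on the plus strand. Capitals mark matches to the motifs searched on both strands, among which the GC box is spelled GGGCGG. The TATA box was searched for as TATAAA, the AP-1 site was searched for as TGANTCA, and the NF-kB site by its consensus.
KLK5: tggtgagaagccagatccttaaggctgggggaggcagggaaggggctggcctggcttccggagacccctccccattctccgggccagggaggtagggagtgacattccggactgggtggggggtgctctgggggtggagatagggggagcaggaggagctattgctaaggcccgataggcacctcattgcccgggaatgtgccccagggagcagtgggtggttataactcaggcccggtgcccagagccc
KLK6: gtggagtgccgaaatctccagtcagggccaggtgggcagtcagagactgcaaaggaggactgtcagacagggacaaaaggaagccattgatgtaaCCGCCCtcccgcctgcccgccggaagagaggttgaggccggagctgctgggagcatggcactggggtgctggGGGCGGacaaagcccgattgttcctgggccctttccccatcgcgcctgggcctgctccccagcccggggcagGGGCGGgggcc
SPINK5: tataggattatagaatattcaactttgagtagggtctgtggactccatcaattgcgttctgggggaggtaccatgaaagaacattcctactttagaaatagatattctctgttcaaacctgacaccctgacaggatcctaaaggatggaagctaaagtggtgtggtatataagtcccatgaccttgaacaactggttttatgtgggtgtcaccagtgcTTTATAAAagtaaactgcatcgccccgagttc
The KLK5 window held none of the motifs. The KLK6 window held 3 GC boxes, which begin at positions -155, -83 and -11 from the gene start. In the SPINK5 window, TATA boxes on opposite strands overlap, beginning at -32 and -30. The KLK5 and KLK6 windows had GC contents of 64.8% and 66.8%, against 41.6% for SPINK5 and a median of 58.0% over all 35116 windows. Windows were matched for 9 of the 10 genes (KLK8 had no entry), 16 windows in all. A GC box was present in 9 of the 16 windows, which belong to 5 genes, and in 42.6% of all windows. The NF-kB consensus was present in 4 of the 16 windows, which belong to 2 of the 9 genes (KLK7 and KLK10), and in 5.21% of all windows. Several genes have more than 1 window, so the windows are not independent and a share of windows is not a share of genes. The AP-1 motif, present in 6.57% of all windows, was in 0 of the 16. The TATA box, present in 10.7% of all windows, was found for SPINK5 alone among the 9 genes. A match describes letters in a window and not a bound site.

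KLK7 and KLK8 were below 0 on each array without passing the test. KLK7 is the chymotrypsin-like enzyme of the group, which cleaves corneodesmosin after activation by KLK5. Its log2 ratios were -0.05, -0.17, -0.16 and -0.20, with a mean of -0.15 ± 0.064 (SD, n = 4 arrays; limma adjusted p = 0.175). KLK8, or neuropsin, is a trypsin-like protease of suprabasal keratinocytes and of the brain. Its log2 ratios were -0.09, -0.07, -0.12 and -0.27, with a mean of -0.14 ± 0.090 (SD, n = 4 arrays; limma adjusted p = 0.226). The 95% intervals ran from -0.27 to -0.03 for KLK7 and from -0.26 to -0.01 for KLK8 before adjustment for the number of probes. With median centring, KLK7 kept its direction (-0.09) and KLK8 lost it (0.0070).

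KLK10 and KLK11, which lie next to each other further along the chromosome, had smaller differences. KLK10 was first described as a gene lost in breast carcinoma cells. Its log2 ratios were -0.16, -0.28, -0.13 and 0.05, with a mean of -0.13 ± 0.14 (SD, n = 4 arrays; limma adjusted p = 0.306). Of the 4 arrays, 3 were below 0 and array 4 above it. KLK11 is a trypsin-like protease found in skin and in hormone-responsive tissues. It had ratios of -0.19, -0.05, 0.00 and -0.09, with a mean of -0.08 ± 0.081 (SD, n = 4 arrays; limma adjusted p = 0.495). KLK11 is the only member spotted 10 times on each array. The SD of its ratio between the single spots of an array was 0.0515 to 0.0783. The SD between arrays is that of means over 8 to 10 spots, so these SDs are unlike measures.

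KLK12, KLK13 and KLK14 had no constant direction. KLK12, a trypsin-like protease, had ratios of -0.08, 0.06, 0.03 and -0.01 (limma adjusted p = 0.993). Its mean was 0.0013, with a 95% interval of -0.12 to 0.12. KLK14, which is highly active and activates other kallikreins, had ratios of -0.01, -0.02, 0.23 and -0.07 (limma adjusted p = 0.826). Array 3 alone gave its mean of 0.03 a positive sign, and without that array the mean was -0.03. KLK13 is a protease of oral and esophageal epithelium with matrix proteins among its substrates. Its probe A_24_P333697 gave -0.39, -0.04, 0.03 and 0.20, and its dimmer probe A_24_P416645 gave -0.66, -0.14, -0.14 and 0.11. Both KLK13 probes were lowest on array 1 and highest on array 4, and their SDs of 0.25 and 0.32 were the widest among the tested probes of the members. Neither passed over the 4 arrays (limma adjusted p = 0.806 and 0.289). Without array 4, the mean of the dimmer probe was -0.31 (limma adjusted p = 0.0116), and without array 1 that of the brighter probe was 0.06.

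SPINK5, the inhibitor, was read by 3 probes that differed. Its brightest probe, A_33_P3391126, had log2 ratios of -0.09, -0.02, -0.01 and -0.13, with a mean of -0.06 ± 0.057 (SD, n = 4 arrays; limma adjusted p = 0.586). The second probe, A_23_P356494, had 0.04, -0.01, 0.15 and 0.32, with a mean of 0.12 ± 0.15 (SD, n = 4 arrays; limma adjusted p = 0.333). The means thus had opposite signs, and neither passed the test. The third probe, A_33_P3340782, was not well above background in either channel on any array. With median centring the brightest probe passed the test as lower (-0.25, limma adjusted p = 0.020) and the second turned below 0 (-0.12), so the sign for SPINK5 depended on probe and normalization.

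The level of several kallikreins differed between arrays far more than between the lines. KLK5, averaged over the lines, spanned 1.57 log2 units between its lowest and highest array, which 0.547% of tested probes matched or exceeded. KLK11 spanned 1.26 and KLK10 spanned 1.15 log2 units. By the brightest probe, these 3 of the 10 members went over 1 unit, against 2.89% of genes. KLK13 spanned 0.97 by its brightest probe and 1.33 by its dimmer one, so the count depends on the probe. Related lists held such genes too, with 3 of the 8 substrates reported, 2 of 10 other inhibitors and 2 of 9 squamous epithelial markers. CDH1 is counted among both the substrates and the markers. The substrate FN1 was lowest on array 2 and the inhibitor SERPINB6 on array 1, whereas KLK5, KLK10 and KLK11 were lowest on array 4. The limit of 1 unit was chosen after the values were seen, and the markers KRT5 (0.979) and KRT14 (0.933) fell just below it. The brightest SPINK5 probe spanned 0.0828 log2 units, a range that 97.8% of tested probes matched or exceeded. It was dim, with a mean log2 intensity of 7.17, against 6.05 for the SPINK5 probe that was not well above background. KLK5 was at 12.89, and KLK11, with its wide span, at 7.77. Whether dimness narrowed the SPINK5 range was not tested. Array 4 held the lowest level in both lines for KLK5, KLK6, KLK8, KLK10 and KLK11, which is 5 of the 10 members, against 15.9% of genes and 3 of the 5 other tissue kallikreins.

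KLK10 had log2 intensities of 8.24, 9.19, 8.76 and 7.88 in SCt cells on arrays 1 to 4, and 8.08, 8.91, 8.63 and 7.93 in SB cells. KLK11 had 7.63, 8.37, 8.11 and 7.13 in SCt cells, and 7.44, 8.33, 8.11 and 7.04 in SB cells. KLK13 had 11.44, 12.10, 11.81 and 11.01 in SCt cells by its brightest probe, and 11.05, 12.07, 11.84 and 11.21 in SB cells. In all 3 genes the lines moved together, high on arrays 2 and 3 and low on arrays 1 and 4, and overlapped almost wholly. For KLK11 the spots of an array agreed closely, with an SD of 0.0343 to 0.0590 log2 units between them, while the array means before normalization between arrays were 7.45, 8.32, 8.40 and 6.96. Red and green signals of a spot share that spot, so for a level that moves in both lines the array and the RNA sample cannot be told apart. KRT17, a keratin of basal and wounded epithelium, spanned 1.56 log2 units and was also lowest on array 4. Of the 9 squamous epithelial markers, 6 were lowest on array 4 in both lines, and their part in the kallikrein levels was not tested. The summed intensity of these markers was 143400 to 244400 in SB cells and 141300 to 256700 in SCt cells, ranges that overlapped.

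**Figure D3:**
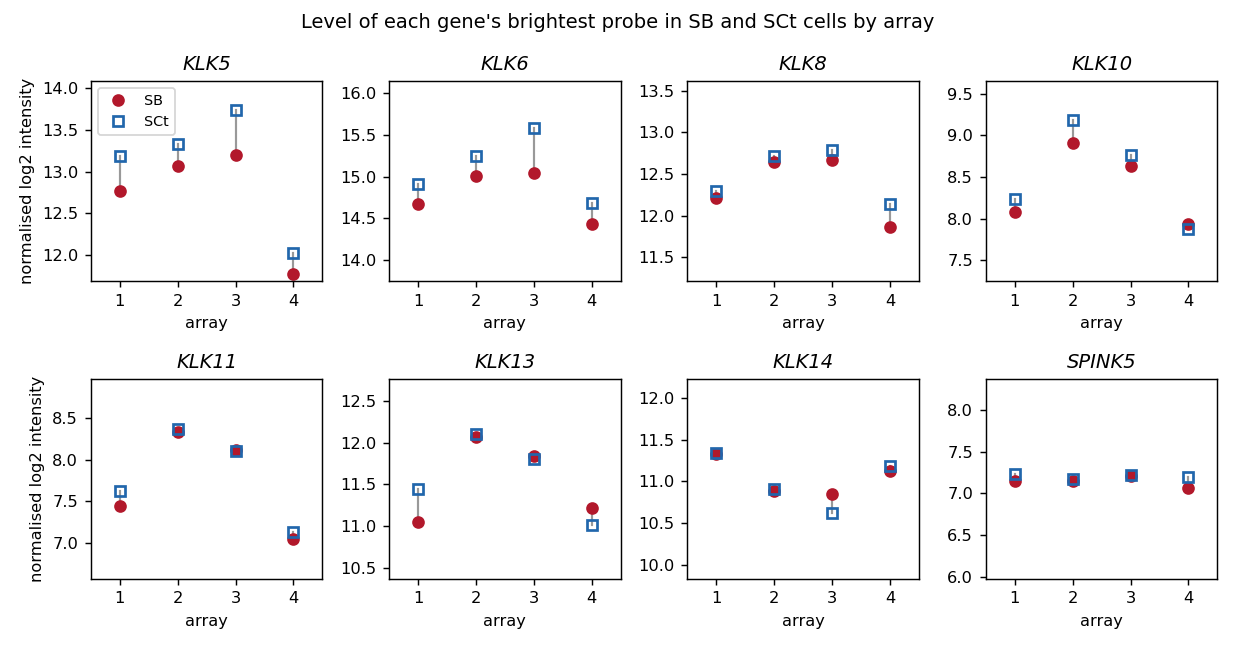
Normalised log2 intensity (vertical axis, with the same span in every panel) of the brightest probe of 8 members on each array (horizontal axis). Filled circles are SB cells, open squares SCt cells, and a grey line joins the values of an array. KLK5, KLK10, KLK11 and KLK13 move between arrays by about 1 unit or more in both lines, whereas the dim SPINK5 probe stays near 7.

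Along chromosome 19, the lowest ratios lay at the neighbours KLK5 and KLK6. From KLK5 to KLK14, a run of 10 genes that includes KLK9, the mean log2 ratio climbed from -0.37 at KLK5 through -0.13 at KLK10 to 0.03 at KLK14. Spearman's rho between position in the run and mean log2 ratio was 0.976 (n = 10 genes, which share the same arrays), and on arrays 1 to 4 taken alone it was 0.394, 0.770, 0.939 and 0.661. Over all 14 measured tissue kallikreins rho was 0.0549, as the genes before KLK5 had means from -0.15 to 0.09. Median centring lowered the value for the run to 0.394. KLK13 entered the run by its brighter probe (-0.05), whereas its dimmer tested probe had a mean of -0.21, for which no rho is given. The run was also begun at KLK5, the gene with the lowest mean. The order was noticed after the ratios had been seen and is a description of these probes. In the same run rho between ratio and probe brightness was -0.552, and with median centring it was 0.394.

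**Figure D4:**
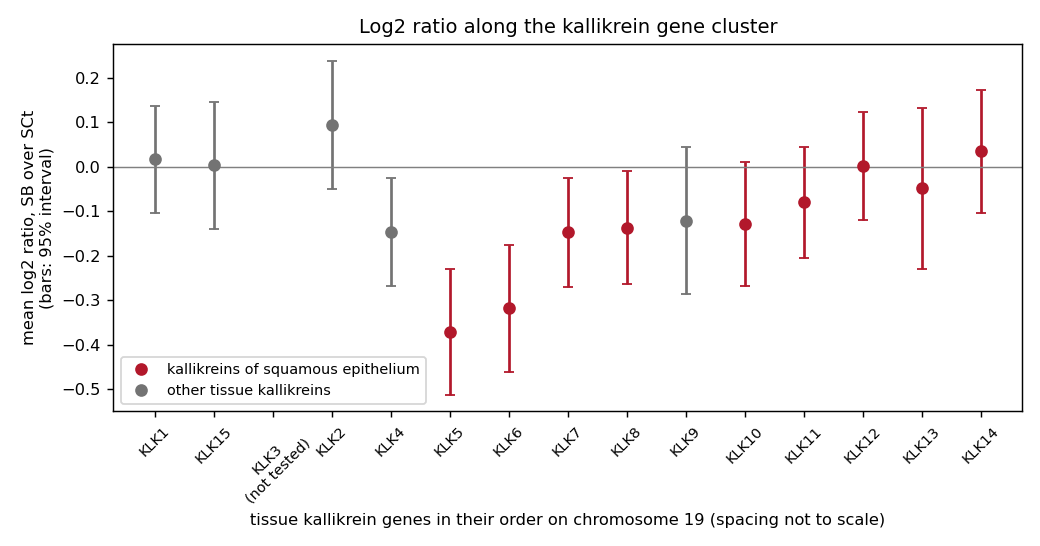
Mean log2 ratio of SB over SCt (vertical axis) of the brightest probe of each tissue kallikrein, with 95% intervals from limma as bars, in gene order on chromosome 19 (horizontal axis, not to scale). Red points are members and grey points the other tissue kallikreins. KLK5 and KLK6 lie lowest, and the values climb from there to KLK14.

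The other tissue kallikreins did not pass the test. KLK4, the enamel matrix protease next to KLK5, had log2 ratios of -0.09, -0.21, -0.11 and -0.19, with a mean of -0.15 (limma adjusted p = 0.174). KLK9 had -0.20, -0.12, -0.32 and 0.16, with a mean of -0.12 (limma adjusted p = 0.422). KLK1, the kinin-releasing enzyme, KLK15 and KLK2 had means of 0.02, 0.00 and 0.09, and KLK3, prostate-specific antigen, was not tested because its probe was not well above background. Thus 0 of 5 tested passed by limma and 1 had an unadjusted p under 0.05, which 18.1% of all genes had. The methods' t-test with adjustment called 0 of all probes on the array, MTDH included, and so does not bear on any list. The genes that flank the cluster also gave 0 calls among 6 tested by limma, with 0 at an unadjusted p under 0.05, and their means ran from -0.05 to 0.11. The 4 tested genes that flank SPINK5 on chromosome 5 likewise gave 0 calls and 0 at an unadjusted p under 0.05.

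Genes that act with the kallikreins were read beside them. Of the 38 inhibitors, activators, substrates and other tissue kallikreins reported here, 31 were tested and 0 passed by limma with the brightest probe (3.51% of all genes did), while 1 had an unadjusted p under 0.05. Their median log2 ratio was 0.01. With median centring 12 of them passed, where 31.4% of all probes did. Among the 10 tested inhibitors other than SPINK5, such as SLPI, PI3 and SPINT1, 0 passed by the brightest probe and 0 had an unadjusted p under 0.05. SERPINA3, the antichymotrypsin, had 3 probes that disagreed: the dimmest, A_23_P2920, was lower (-0.40 ± 0.22, SD, n = 4 arrays; limma adjusted p = 0.0162), and the others had means of -0.08 and -0.06. That dimmest probe had a mean log2 intensity of 6.79 and was well above background on 3 arrays in SB cells and 4 in SCt cells. It thus entered the test through the SCt channel alone, in which it was the higher. Among the 8 tested activators and partner proteases, such as PLAU, ST14 and PRSS8, 0 passed and 0 had an unadjusted p under 0.05, with means from -0.02 to 0.15. The 8 tested substrates reported here had means from -0.11 to 0.10. The junction substrate CDSN had a mean of -0.05 (limma adjusted p = 0.663), and DSG1 and CAMP were not tested because their probes were not well above background. Among the 9 squamous epithelial markers 0 passed by limma, 4 had an unadjusted p under 0.05 (18.1% of all genes had), and their means ran from -0.28 to 0.14. The lowest was the keratin gene KRT6A, with log2 ratios of -0.57, -0.33, -0.27 and 0.07 and a mean close to that of KLK6 (limma adjusted p = 0.106).

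**Figure D5:**
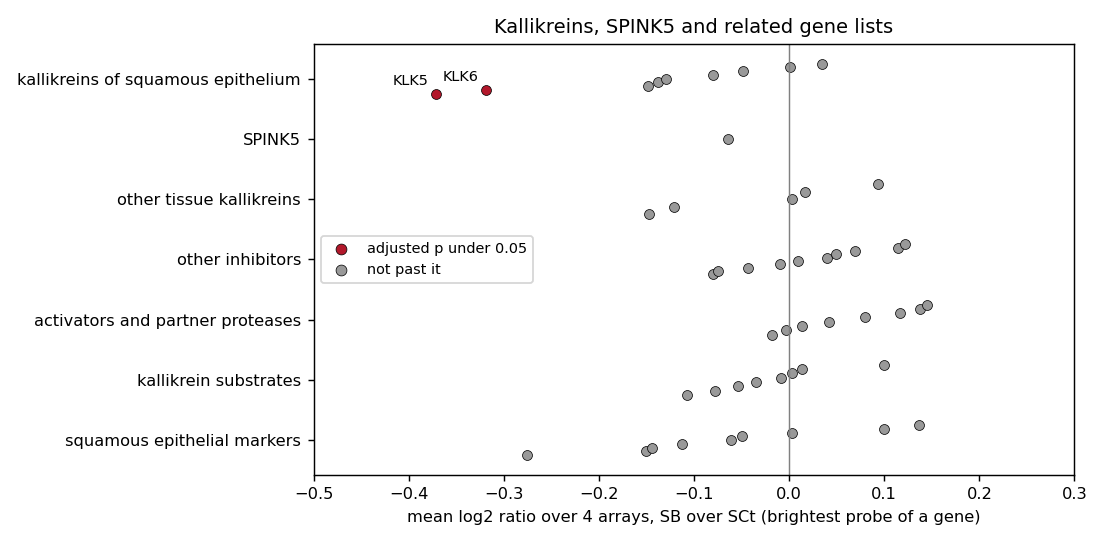
Mean log2 ratio of SB over SCt over the 4 arrays (horizontal axis) of the brightest probe of each gene, by list (vertical axis, spread within a list for legibility). Red points passed an adjusted p of 0.05. KLK5 (-0.37) and KLK6 (-0.32) lie lowest, the squamous epithelial marker KRT6A (-0.28) is next to them, and the other genes lie between -0.15 and 0.15.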

How the data were processed

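RNA of SB cells (red) and SCt cells (green) was compared on 4 two-colour Agilent arrays, 15 μg of RNA per labelling. The authors deposited scanner output (Feature Extraction 10.5.1.1) with median spot intensities and local background on a linear scale, not normalized. The same deposited files hold the software's dye-normalized ratio on a log10 scale, used as an alternative. The authors also deposited a series table on a log2 scale; 97.6% to 97.9% of its values per array equalled the software's processed ratio of SB over SCt within 0.001, and its medians were -0.0165 to 0.022. The test design had named no kind of intensity, and the median signals of the files were used.

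The R version was 4.3.3 and that of limma 3.58.1. The background of all 44495 spots was corrected by normexp (offset 50), 1377 control spots and 814 to 1168 outlier spots per array were left out, log2 ratios were normalized by loess within arrays, and the spots of a probe were averaged. A probe entered the test where all 4 arrays showed it well above background in one and the same channel (28507 of 34127 probes). The mean log2 ratio was tested against 0 with lmFit and eBayes, with Benjamini-Hochberg adjustment over all 28507 probes at 0.05, of which 1055 passed. Levels of each line are log2 intensities after loess and Aquantile normalization. Probes were named by accession through a RefSeq table (GRCh38.p14), in which 24826 probes matched and 9301 did not, and a gene is represented by its brightest tested probe. Precision is limited by there being 4 arrays. An exact sign-flip test of 4 arrays cannot go below p = 0.125, so such a test was not used.

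The members and the gene lists were chosen with earlier results of these data known. All members are named with every probe. Of the lists, the genes past the threshold and the other tissue kallikreins are named, and further genes serve as examples; 1 gene of the lists is not reported here and is left out of their counts. The scripts were tested on simulated data. The alternatives were the software's ratio, the series table, median centring, no background correction, normexp with an offset of 0, Aquantile, dim probes left in, both channels required above background, outlier spots left in, robust eBayes with an intensity trend, a one-sample t-test after the study's methods (the methods' t-test), omission of each array and the mean of a gene's probes. The study's methods name a t-test without an adjustment, and the Benjamini-Hochberg adjustment of its p-values was added here.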

Additional observations from a re-analysis of the deposited data

Results flagged for a closer look

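The brightest KLK6 probe had one array far from the others: the log2 ratio was -0.54 on array 3, and the other 3 arrays lay between -0.25 and -0.24. The gap was 0.969 of the whole range, beyond the 95% limit of Dixon's test for 4 values. Of the 21 probes examined in this way, 1 stood out, and chance gives about 5% of probes. The second KLK6 probe and KLK5 were also lowest on array 3 (-0.44 and -0.55). Without array 3, KLK6 had a mean of -0.25 (limma adjusted p = 0.119) and KLK5 a mean of -0.31 (limma adjusted p = 0.0923). In all, 204 probes passed without array 3, against 1055 with 4 arrays.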

How the results depend on the processing

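The main test compares the lines within each array and is thus a paired analysis, with no further replicate block to add. The 2 member calls became 1 (KLK6) with the software's ratio, 0 with the series table and 0 with the methods' t-test, at which 3 members each had an unadjusted p under 0.05, and lay between 0 and 2 with an array left out (1 without array 2, 0 without array 3). With median centring 2 members passed, but KLK5 and SPINK5 in place of KLK5 and KLK6. The 1055 called probes became 698 (series table), 8939 (median centring), 579 (eBayes with trend and robust options, 102 higher and 477 lower) and 0 (methods' t-test, 3936 unadjusted), and 204 to 1991 with an array left out (640, 427, 204 and 1991 without arrays 1 to 4). Median centring gave 5599 higher and 3340 lower calls, against 376 and 679. The 0 calls among the interacting genes reported became 12 with median centring, and stayed 0 with each array left out. Under the methods' t-test the adjusted p was 0.272 for KLK5, 0.303 for KLK6 and 0.143 for MTDH. Signs turned for KLK12 (-0.0202 with the software's ratio and the series table, -0.16 with median centring, -0.0099 with offset 0, and from -0.0195 to 0.0279 with an array left out), for KLK8 (0.0070), the second SPINK5 probe (-0.12) and KLK13 (0.0638) with median centring, and with an array left out for KLK13 (-0.13 to 0.0648) and KLK14 (-0.0321 to 0.0678). The cause of these changes was not tested. KLK7, KLK10 and KLK11 stayed below 0 and uncalled, though Aquantile, the filters, the eBayes options and the t-test leave a mean as it is, and the t-test calls no probe. With a mean over the probes of a gene, KLK6 was at -0.28 (limma adjusted p = 0.0397) and SPINK5 at 0.03 (limma adjusted p = 0.811).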
